A study of Mus musculus with 6 samples.

Results

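A set of 10 imprinted genes that act on growth was followed, namely Igf2, H19, Dlk1, Plagl1, Grb10, Cdkn1c, Slc38a4, Peg3, Ndn and Mest. They were chosen by gene name, and every non-control probe carrying 1 of these names was used, which gave 10 genes and 18 probes of the 29742 gene names and 41174 probes on the array. The cells were primary mouse embryonic fibroblasts (MEFs, connective tissue cells grown from embryos) of embryonic day 15 by the labels, on a mixed 129/Sv and Black Swiss background. They came from wild type (WT) embryos or from embryos that lack part of the helicase domain of Wrn, the gene of the RecQ helicase that is mutated in Werner syndrome (WS, Wrn Δhel/Δhel), so an internal part of the gene was deleted and the rest of the locus was kept. Of each genotype, 2 two-colour arrays set cells exposed to 0.5 mM hydrogen peroxide (H2O2) for 1 h, followed by 24 h in fresh medium, against untreated cells, with treated material in Cy5 and untreated material in Cy3. Another 2 arrays, the genotype arrays with replicate numbers 3 and 4, set untreated WT against untreated WS cells. All cells were in the same serum-containing medium, and no dyes were swapped.

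Genomic imprinting keeps a gene active on the copy from 1 parent and silent on the other, through DNA methylation at control regions that are set in the germ line. Many genes of this kind tune fetal growth: paternally expressed genes such as Igf2, Dlk1, Peg3, Mest, Plagl1 and Slc38a4 as a rule favour growth or nutrient supply, and maternally expressed genes such as H19, Cdkn1c and Grb10 as a rule restrain it. Several lie in shared clusters, so that Igf2 and H19 use the same enhancers, and Dlk1 lies beside the noncoding RNA Meg3.

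The 10 genes lie on 6 chromosomes, and 5 of them, Igf2, H19, Cdkn1c, Peg3 and Ndn, lie on chromosome 7. Upstream sequence is shown for the 3 protein-coding genes that passed the strictest thresholds between the genotypes and for Dlk1, as the 250 bases before a RefSeq transcription start on build GRCm38.p6, written 5′ to 3′ on the gene's strand with each CG in capitals. CG pairs are the bases at which imprinting marks are placed. All 3 Slc38a4 starts are given, and for Igf2 the start with the most CG pairs.
Slc38a4 chr15:97020360-97020609 (- strand): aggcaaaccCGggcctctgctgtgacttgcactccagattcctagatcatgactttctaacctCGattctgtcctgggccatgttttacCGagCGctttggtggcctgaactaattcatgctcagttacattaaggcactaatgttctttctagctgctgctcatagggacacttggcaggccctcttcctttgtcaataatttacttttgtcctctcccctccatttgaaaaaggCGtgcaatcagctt
Slc38a4 chr15:97031214-97031463 (- strand): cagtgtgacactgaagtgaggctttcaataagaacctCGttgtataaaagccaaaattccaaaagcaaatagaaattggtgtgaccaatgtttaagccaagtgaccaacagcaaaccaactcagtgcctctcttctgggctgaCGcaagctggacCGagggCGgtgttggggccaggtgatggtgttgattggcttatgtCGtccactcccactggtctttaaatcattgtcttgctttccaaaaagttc
Slc38a4 chr15:97055957-97056206 (- strand): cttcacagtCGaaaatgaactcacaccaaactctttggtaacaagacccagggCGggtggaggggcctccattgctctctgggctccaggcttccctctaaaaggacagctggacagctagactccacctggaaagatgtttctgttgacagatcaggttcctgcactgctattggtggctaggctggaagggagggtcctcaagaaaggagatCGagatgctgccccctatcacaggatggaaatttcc
Igf2 chr7:142658805-142659054 (- strand): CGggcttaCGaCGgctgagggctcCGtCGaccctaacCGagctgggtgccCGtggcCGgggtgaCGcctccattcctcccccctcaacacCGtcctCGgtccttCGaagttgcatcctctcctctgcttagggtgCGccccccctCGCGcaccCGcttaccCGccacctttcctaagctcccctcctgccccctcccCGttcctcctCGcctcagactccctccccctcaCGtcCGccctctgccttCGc
Plagl1 chr10:13090582-13090831 (+ strand): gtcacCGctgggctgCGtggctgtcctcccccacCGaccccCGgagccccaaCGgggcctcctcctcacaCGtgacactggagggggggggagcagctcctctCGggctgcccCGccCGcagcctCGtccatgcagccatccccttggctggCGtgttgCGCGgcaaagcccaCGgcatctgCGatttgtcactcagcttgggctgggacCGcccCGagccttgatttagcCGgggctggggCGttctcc
Dlk1 chr12:109452573-109452822 (+ strand): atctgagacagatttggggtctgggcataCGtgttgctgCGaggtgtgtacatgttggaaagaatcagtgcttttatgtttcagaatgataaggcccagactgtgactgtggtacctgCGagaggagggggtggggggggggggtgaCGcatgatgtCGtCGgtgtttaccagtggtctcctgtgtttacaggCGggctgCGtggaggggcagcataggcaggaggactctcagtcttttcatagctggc
The RefSeq table held 16 such windows for 8 of the 10 genes, while H19 and Cdkn1c are named only. The Slc38a4 windows held 5, 5 and 3 CG pairs, the Plagl1 window 19, the printed Igf2 window 22 and the Dlk1 window 8, against a median of 6 over 32850 windows. The member windows ranged from 1 CG pair at another Igf2 start to 40 at a Grb10 start, and 10 of 16 lay above that median. The letters GGGGCCCC, which read the same on both strands, occurred in 1 member window, that of Peg3, and in 0.889% of all windows.

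H19 RNA is also the precursor of miR-675, whose 2 mature forms are given with the seed (bases 2 to 8) in capitals because the arrays measured only the host RNA.
mmu-miR-675-5p: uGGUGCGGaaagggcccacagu
mmu-miR-675-3p: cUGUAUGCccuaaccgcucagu
Both arms have seeds of their own, and neither was measured here.

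The arrays differed in quality, and this reached the members. Between 0.400% and 22.6% of the non-control spots of an array were marked as outliers by the scanner software, most on WT replicate 2. Of the 108 member spots 10 carried this mark, 7 on WT replicate 2 and 3 on WS replicate 2, and these were left out of the main values, so that some ratios rest on 1 array. No member spot was saturated, and 104 were well above background in Cy3 but only 82 in Cy5. The 4 Wrn probes did not separate the genotypes in 1 direction, with log2 values of 0.37, -0.90, -0.00 and 0.38 on the genotype arrays (limma adjusted p = 0.0111 for the lowest), and their place relative to the deleted part of the gene is not known here. All 6 fibroblast markers were well above background in every condition. Their summed intensity was 41518 to 47642 in untreated WT and 58765 to 74094 in untreated WS (Cy3 of the treatment arrays). With outlier spots left out, Col3a1 (0.60), Vim (0.24) and Pdgfrb (1.18) lay above 0 in WS over WT there. Thy1 (-0.34) lay below 0, and Col1a1 and Col1a2 had no value. The summed intensity of 4 chondrocyte markers was 6041 to 8396 and 10188 to 15424 in the same samples, with 3 or 4 of 4 markers well above background. With outlier spots left out, Col2a1 lay at 0.29 on the log2 scale in WS over WT within Cy3. Acan (-0.76), Col9a1 (-0.90) and Matn1 (-0.65) lay below 0 there. Col2a1 had 1 usable WS array, and Acan and Matn1 had 1 usable WT array each, while Col9a1 did not pass (limma adjusted p = 0.516). These values do not show which marker carried the sum. The 6 skeletal muscle markers summed to 3742 to 5517 and to 4266 to 4314, the 6 macrophage markers to 296 to 542 and to 254 to 305, and the 6 hepatocyte markers to 1071 to 1789 and to 1578 to 1939. The 5 neuronal markers summed to 444 to 513 and to 430.3 to 481, and the 4 endothelial markers to 88.7 to 175 and to 81.7 to 92.0. The part of the fibroblast and chondrocyte markers in the member results was not tested. In such bulk samples fewer cells of a type and less RNA per cell cannot be told apart.

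The question of the genotype arrays was how untreated WS cells differ from untreated WT cells. The labels put WT in Cy5 of these arrays, but the list of WS over WT values that accompanies the study runs the way of Cy5 over Cy3. Values are therefore given as WS over WT with WS likely in Cy5, and each sign from these arrays turns if the labels are right. The Cy3 channels of the treatment arrays, which hold untreated WT and untreated WS by labels that nothing contradicts, give the same comparison on other arrays, and 800 of 810 probes that passed the thresholds on the genotype arrays and have a Cy3 value there had the same sign in both. Log2 values below are ratios on an array or log2 intensities per channel, and errors are standard errors (SE) of the limma fit. A call meant an adjusted p (Benjamini-Hochberg over all probes) under 0.005 and a mean log2 intensity over 6, which are the study's thresholds.

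By these thresholds 4 of the 10 genes were called on the genotype arrays, with 1 probe each, where 825 of 41099 probes (2.01%) were called in all. Igf2, H19 and Plagl1 were higher in WS cells and Slc38a4 was lower. The mean log2 intensity of Slc38a4 was 6.05, just over the threshold of 6, and it was reached only through WT. Its log2 levels on these arrays were 7.87 and 8.28 in WT but 4.28 and 3.73 in WS, where the spots were not well above background. By an adjusted p under 0.05 alone, 11 of the 18 probes and 7 of the 10 genes passed, against 19.9% of all probes. Of the 18 probes 7 passed as higher (10.2% of all probes) and 4 as lower (9.76%), with Dlk1 joining the higher genes and Peg3 and Ndn the lower ones. The count of 4 called genes rests on the spread shared over all 6 arrays, and it was 0 without WS replicate 1 or 2, 1 without WT replicate 1 or 2, 4 without genotype replicate 3 and 6 without genotype replicate 4. The median of the 10 genes, each by its brightest probe, was 0.55 against 0.01 over all probes.

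**Figure D1:**
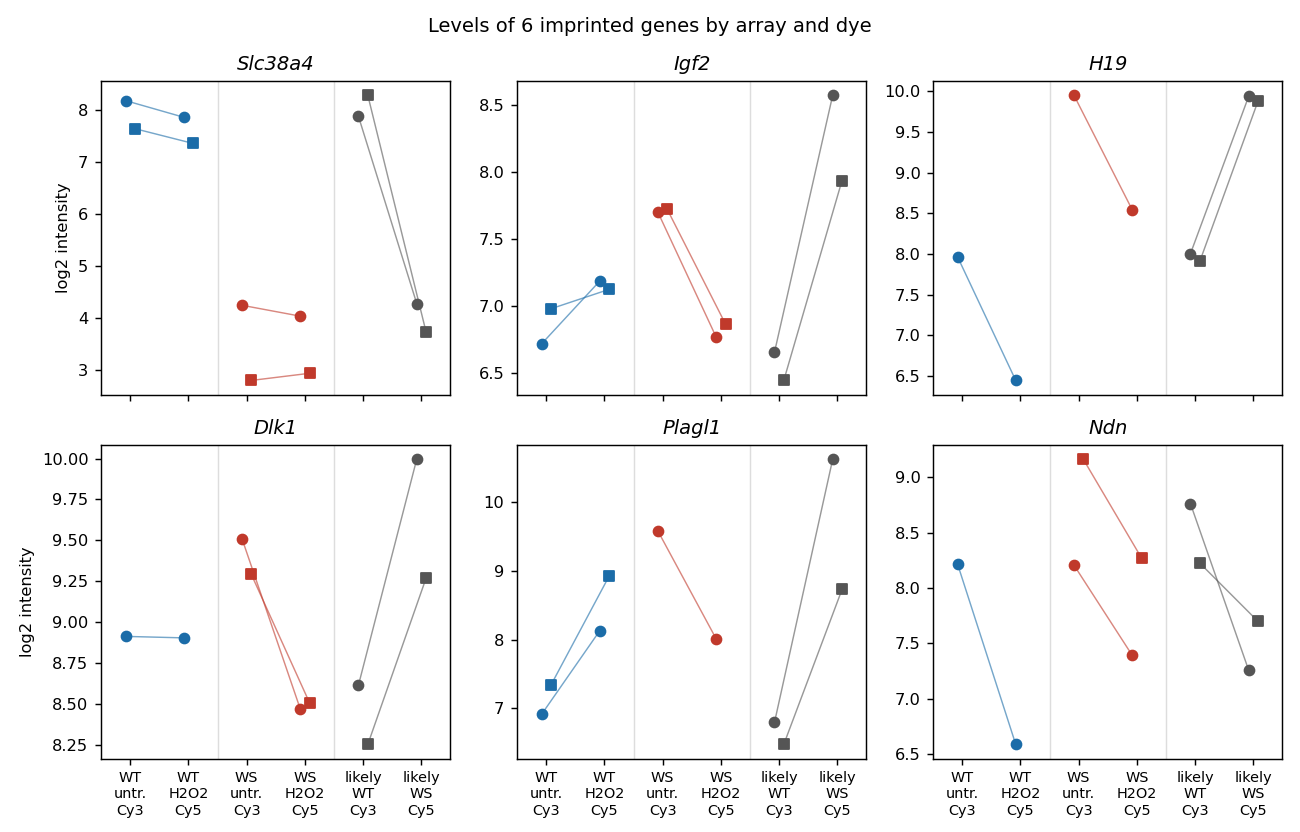
Normalized log2 intensity (vertical axis) of the brightest probe of 6 imprinted genes in each dye of each array, with a line joining both dyes of 1 array, circles for replicates 1 and 3 and squares for replicates 2 and 4. Blue stands for WT treatment arrays, red for WS treatment arrays and grey for genotype arrays, spots marked as outliers are not drawn, and Slc38a4 lies at or below 4.28 in all WS channels but at or above 7.35 in all WT channels.

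Igf2, the fetal insulin-like growth factor, was higher in WS cells. Its log2 ratio by probe A_51_P516826 was 1.92 and 1.49 on the genotype arrays, and 0.70 and 1.70 by the dimmer probe A_51_P516833. All 4 ratios lay above 0. The mean of the brighter probe was 1.70 ± 0.18 (SE, n = 2 arrays), a 3.26-fold difference with a limma adjusted p of 0.00225. In Cy3 of the treatment arrays its log2 level was 6.71 and 6.98 in untreated WT and 7.70 and 7.72 in untreated WS. The WS levels were above both WT levels, but the difference of 0.86 ± 0.38 did not pass (limma adjusted p = 0.470). With outlier spots of other probes kept it was 1.31 and did not pass either (limma adjusted p = 0.211).

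H19, the noncoding RNA that shares its enhancers with Igf2, was higher in WS cells by both of its probes. The log2 ratios on the genotype arrays were 1.93 and 1.97 by probe A_51_P142196, and 1.71 and 2.44 by probe A_52_P571350. The mean of the first was 1.95 ± 0.18, 3.87-fold (limma adjusted p = 0.00368). In Cy3 of the treatment arrays replicate 2 of both genotypes was an outlier spot. The single remaining levels were 7.97 in WT and 9.95 in WS, a difference of 1.98 for which no spread could be measured. With the outlier spots kept this difference was 2.31 and passed at an adjusted p of 0.0123.

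Dlk1, a transmembrane relative of the Notch ligands that holds back adipocyte differentiation, was higher in WS cells with smaller values. Its log2 ratios were 1.38 and 1.02 by probe A_51_P135618 and 1.03 and 1.02 by probe A_52_P177324. The means were 1.20 ± 0.18 and 1.03 ± 0.15, with limma adjusted p-values of 0.00939 and 0.00591, over the strictest threshold. Within Cy3 the differences were 0.49 ± 0.48 and 0.73 ± 0.38, and neither passed (limma adjusted p = 0.762 and 0.543).

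Plagl1, a zinc finger transcription factor that can arrest the cell cycle, had the highest value of the 10 genes by 1 of its probes. Probe A_52_P532456, designed on a cDNA clone, gave log2 ratios of 3.83 and 2.26 on the genotype arrays, and probe A_51_P432034, designed on the RefSeq transcript, gave 0.32 and 0.48. Both probes pointed the same way, but their sizes differed widely. The first averaged 3.05 ± 0.36, 8.26-fold (limma adjusted p = 0.00466), and the second 0.40 ± 0.15, which did not pass (limma adjusted p = 0.112). Within Cy3 the levels of the first were 6.91 and 7.34 in WT and 9.58 in the 1 usable WS array, a difference of 2.46 ± 0.49 (limma adjusted p = 0.0564). With the outlier spots kept it was 3.35, with an adjusted p of 0.00170.

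Slc38a4, a sodium-coupled transporter of neutral amino acids, was lower in WS cells and had the largest difference of the 10 genes. Probe A_52_P48569 gave log2 ratios of -3.60 and -4.55 on the genotype arrays, a mean of -4.07 ± 0.24 (limma adjusted p = 4.07e-04). Its log2 level in Cy3 of the treatment arrays was 8.18 and 7.64 in WT and 4.24 and 2.80 in WS, -4.39 ± 0.48 apart, and this was the only member difference to pass within Cy3 at an adjusted p under 0.05 (limma adjusted p = 0.00128, 0.474% of all probes called). Without WS replicate 1 or 2 no member passed there. The probe was not well above background in any WS channel, so the WS level is only bounded. Set against the dimmest signal well above background, or the probe's own level where that was higher, WT was at least 8.86-fold higher on the genotype arrays. Within Cy3 the probe's own WS level was the higher of these, so only the measured 20.9-fold can be given, and with the outlier spots kept the log2 difference was -4.03. These values hold for subtracted background. With normexp background the difference was -1.87 on the genotype arrays (limma adjusted p = 0.00273) and -2.30 within Cy3, where it no longer passed (limma adjusted p = 0.150). After H2O2 it was at least 4.78-fold higher in WT than in WS cells within Cy5. The second probe, A_52_P12403, gave -0.88 and -0.79, a smaller mean of -0.83 ± 0.17 (limma adjusted p = 0.0166). Both probes were designed on the same RefSeq transcript and had the same sign.

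Grb10, an adaptor that binds and dampens the insulin and insulin-like growth factor receptors, did not pass with any of its 3 probes. The brightest, A_52_P115787, gave log2 ratios of 0.70 and 0.34, a mean of 0.52 ± 0.18 (95% interval 0.09 to 0.96, limma adjusted p = 0.0915). Probe A_51_P187151 averaged -0.39 ± 0.17 and probe A_52_P40363 0.55 ± 0.32, so the 3 probes differed in sign. Cdkn1c, the cyclin-dependent kinase inhibitor p57, averaged 0.58 ± 0.24 from 0.19 and 0.96 (95% interval -0.00 to 1.16, limma adjusted p = 0.140).

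Peg3, a zinc finger gene that affects fetal growth and maternal behaviour, was lower in WS cells by a modest amount. Its ratios were -0.56 and -0.86, with a mean of -0.71 ± 0.18 (limma adjusted p = 0.0352). The probe was not well above background in Cy5 of either genotype array, so the difference comes only with a bound of at least 1.03-fold, and within Cy3 it was -0.66 ± 0.39 (limma adjusted p = 0.597). It no longer passed with normexp background, at -0.14 (limma adjusted p = 0.280), with median centring in place of loess, at -0.80 (limma adjusted p = 0.0822), or with Feature Extraction log ratios, at -0.70 (limma adjusted p = 0.258), nor without any single WT or WS array or genotype replicate 4. Mest, a hydrolase-like protein of the mesoderm, lay at 0.34 and -0.09 on the genotype arrays. Its mean of 0.13 ± 0.19 did not pass, with a 95% interval of -0.32 to 0.57 (limma adjusted p = 0.665).

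Ndn, which encodes the growth suppressor necdin, gave readings that contradicted each other. Probe A_52_P451644 was lower in Cy5 of the genotype arrays, at -1.51 and -0.53 (mean -1.02 ± 0.25, limma adjusted p = 0.0393). Within Cy3 the same probe was 0.47 ± 0.54 in WS relative to WT, and within Cy5 of the treatment arrays treated WS lay 1.25 above treated WT. It was lower in Cy5 than in Cy3 in each of the 3 kinds of array, and the WS level on the genotype arrays (likely Cy5) lay -1.21 from the WS level in Cy3. Its second probe, A_51_P420810, designed on a cDNA clone, averaged 0.27 ± 0.21 and was well above background in Cy5 on 1 of the 2 genotype arrays. The first probe no longer passed with normexp background, at -0.88 (limma adjusted p = 0.0700), or with median centring, at -0.71 (limma adjusted p = 0.190). No direction of Ndn between the genotypes is taken from these values, and with no dye swap the dye and the sample cannot be told apart.

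Over all 18 probes, 15 had the same sign on the genotype arrays and within Cy3, the exceptions being Ndn A_52_P451644 and the Grb10 probes A_51_P187151 and A_52_P40363. The median of the 10 genes within Cy3 was 0.48 against -0.11 over all probes.

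**Figure D2:**
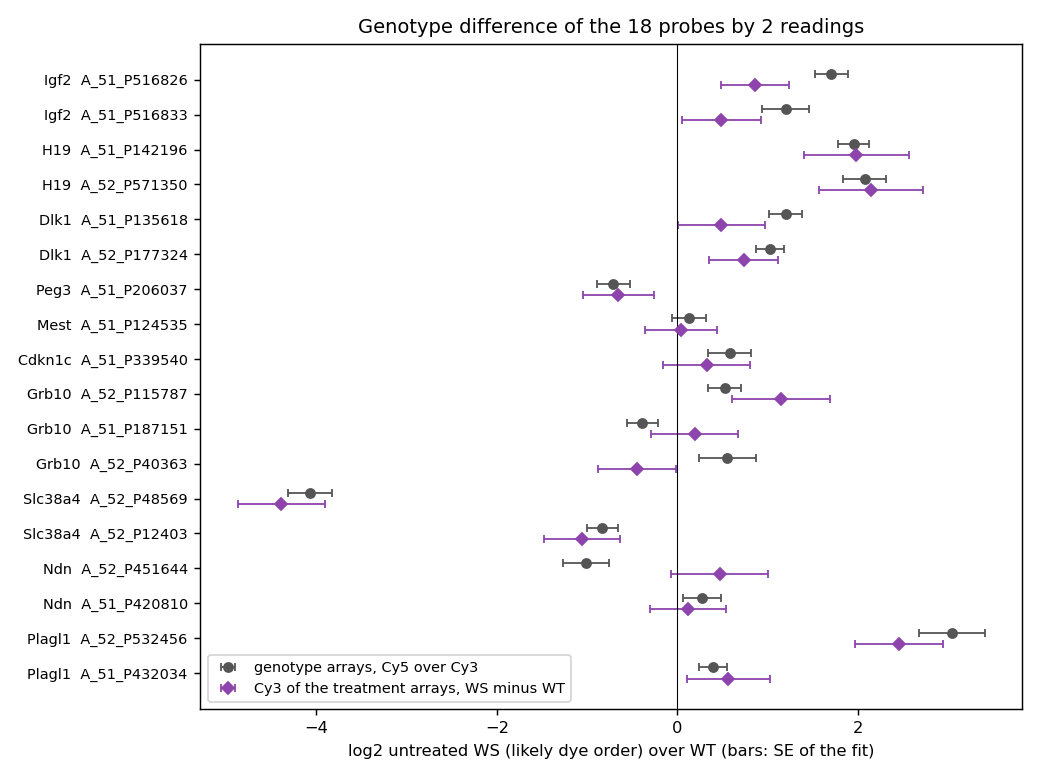
Log2 untreated WS over untreated WT (horizontal axis, bars are the SE of the fit) for the 18 probes, on the genotype arrays (grey circles, WS likely in Cy5) and in Cy3 of the treatment arrays (violet diamonds). The signs match for 15 of 18 probes, and Slc38a4 A_52_P48569 is the lowest in both at -4.07 and -4.39.

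The next question was how the same genes respond to H2O2 in WT cells. No member was called by the study's thresholds, which for the treatment also ask for a fold change of 2, and none of 40303 probes was called (0%). At a limma adjusted p under 0.05 no member probe passed either, against 0.836% of all probes, while 6 of the 18 probes had an unadjusted p under 0.05 against 19.9% of all probes. These were both H19 probes, both Ndn probes and both Plagl1 probes. The median of the 10 genes was -0.16 against -0.01 over all probes. With genotype replicate 3 or 4 left out of the shared spread, 3 members were called in WT and 2 in WS, where 1482 and 498 probes were called in all. The summed intensity of the chondrocyte markers was 2921 to 3561 in treated WT, below the untreated cells. The skeletal muscle markers summed to 2110 to 4214, overlapping the untreated range, and all 6 ratios lay below 0 with a list median of -0.62. The fibroblast markers summed to 52767 to 63658, above untreated WT, although 3 of the 4 with a ratio lay below 0. The part of these marker lists in the member values was not tested.

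In WS cells no member was called either, by the study's thresholds (0% of 41052 probes) or at a limma adjusted p under 0.05 (0%). The smallest adjusted p over all probes was 0.118. By an unadjusted p under 0.05, 10 of the 18 probes of 6 genes passed, all 10 with values below 0, against 5.97% of all probes passing as lower. Of the 18 probes 16 lay below 0, against 48.3% of all probes. The median of the 10 genes was -0.78 against 0.01 over all probes. That size rests on the normalization: with arrays only centred on the median in place of loess the median of the 10 genes was -0.26, with 8 of the 10 below 0, and with the mean of all probes of a gene it was -0.44. With median centring H19 lay at -0.19, Dlk1 at -0.12, Ndn at -0.16, Igf2 at -0.33 and Plagl1 at -0.40. These probes share genes and arrays, and the counts describe these 2 arrays. The skeletal muscle markers summed to 2119 to 2175 in treated WS, below untreated WS, with Acta1 at -2.20, Des and Myog above 0 (0.42 and 0.12) and a list median of -0.13. The hepatocyte markers summed to 957 to 1019, also below untreated WS, with Apob at -1.13 on 1 usable array. Of these markers 3 lay above 0, Afp (0.12), Apoa1 (0.51) and Ttr (0.15), and 3 below it, with a list median of 0.05. The fibroblast markers, at 60739 to 78806, overlapped the untreated range. The part of these marker lists in the member values was not tested.

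Igf2 lay on opposite sides of 0 in the 2 genotypes after treatment. The log2 ratios of treated over untreated were 0.47 and 0.14 in WT and -0.93 and -0.86 in WS by the brighter probe. Both WT ratios lay above 0 and both WS ratios below it, a pattern that 5.23% of all probes with 4 ratios shared. The means were 0.31 ± 0.18 and -0.89 ± 0.18 (limma adjusted p = 0.404 and 0.221). The second probe gave 0.00 ± 0.26 and -0.69 ± 0.26. In treated cells the Igf2 level within Cy5 was 7.18 and 7.12 in WT and 6.76 and 6.86 in WS. With outlier spots of other probes kept, the levels were 7.33 and 6.35 in WT and 7.05 and 6.86 in WS. The order of the treated genotypes thus rests on the handling of outlier spots, and no direction is taken from it. It is also a comparison across arrays for which no test was run.

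H19 had ratios below 0 on every usable treatment array of both genotypes. The ratio by probe A_51_P142196 was -1.52 on WT replicate 1 and -1.41 on WS replicate 1, and with the outlier spots of replicate 2 kept it was -0.88 and -0.93 there. The limma adjusted p-values were 0.0631 in WT and 0.231 in WS without those spots. With them the WT mean was -1.20 at an adjusted p of 0.0434, which is under 0.05, and the WS mean -1.17 at 0.169. The second probe gave -1.06 and -1.59 on replicate 1. The difference of 0.11 ± 0.35 between the responses had a 95% interval of -0.78 to 1.01.

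Dlk1 was at -0.18 and -0.23 in WT and at -0.89 and -0.80 in WS by probe A_52_P177324, which was measured on all 4 arrays. The WS ratios lay below both WT ratios. The mean in WS was -0.84 ± 0.15 (limma adjusted p = 0.205), and by the brighter probe -0.91 ± 0.18 (limma adjusted p = 0.236), which became -0.12 with arrays only centred on the median. In WT the brighter probe gave -0.01 on replicate 1 alone.

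Plagl1 had ratios above 0 in WT and below 0 in WS by both probes. Probe A_52_P532456 gave 1.22 and 1.59 in WT and -1.57 on WS replicate 1, and -1.64 on WS replicate 2 if its outlier spot is kept. Probe A_51_P432034 gave 0.46 and 0.36 in WT and -0.27 and -0.30 in WS. The means of the first were 1.40 ± 0.36 and -1.57 ± 0.51 (limma adjusted p = 0.108 and 0.335). None of the 4 means by the 2 probes passed at an adjusted p under 0.05.

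Grb10 had ratios below 0 in WS by its brightest probe, at -0.63 and -0.78, without passing and with the sign turned (0.15) if arrays are only centred on the median (mean -0.70 ± 0.18, limma adjusted p = 0.274), and in WT it lay at -0.49 on replicate 1. Ndn had ratios below 0 in both genotypes by probe A_52_P451644, at -1.63 on WT replicate 1 and at -0.82 and -0.89 in WS, but its second probe gave 1.18 and 0.56 in WT and 0.11 and 0.51 in WS. The 2 Ndn probes thus had opposite signs in both genotypes. In WS the second probe was well above background on 0 of 2 arrays in Cy5 and on 1 of 2 in Cy3, so its sign there is uncertain.

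The values of the other 4 genes lay nearer to 0 in WS with loess normalization, and none passed at an adjusted p under 0.05 in either genotype. In WT that order did not hold, since Dlk1 lay at -0.20 by probe A_52_P177324 and Igf2 at 0.00 by its second probe. Slc38a4 averaged -0.30 ± 0.24 in WT, while its WS value of -0.04 ± 0.24 came from spots not well above background and was -1.42 with arrays only centred on the median, where it passed (limma adjusted p = 0.0408). Peg3 averaged 0.20 ± 0.18 in WT and -0.05 ± 0.18 in WS, and Mest -0.31 ± 0.19 and -0.23 ± 0.19. In Cy5, treated Mest was well above background on 0 of 2 arrays in each genotype, and treated Peg3 on 1 of 2 in WT and 0 of 2 in WS. Cdkn1c was 0.15 ± 0.34 in WT, on replicate 1 alone, and 0.06 ± 0.24 in WS. The 95% intervals of Peg3 ran from -0.23 to 0.62 in WT and -0.48 to 0.38 in WS, so changes of that size were not detectable with 2 arrays.

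**Figure D3:**
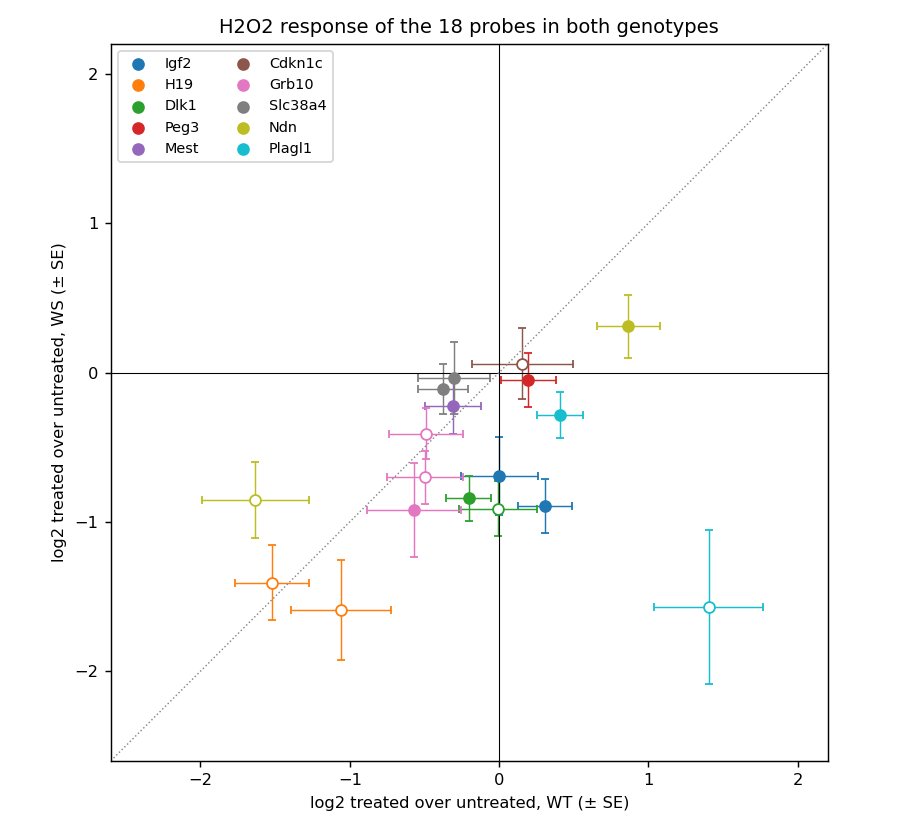
Log2 treated over untreated of the 18 probes in WT (horizontal axis) and WS (vertical axis), with bars for the SE of the fit, a dotted line of equal response and open circles where a genotype has only 1 usable array. The WS values lie between -1.59 and 0.31, with 16 of 18 below 0, and Plagl1 A_52_P532456 lies farthest from the line.

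The difference of the response between the genotypes was tested directly, as the WS response minus the WT response. No probe of any gene passed (0% of 40267 at a limma adjusted p under 0.05, smallest adjusted p 0.159). By an unadjusted p under 0.05, 5 member probes of 3 genes passed, all with differences below 0, against 2.63% of all probes passing as lower. For Igf2 the difference was -1.20 ± 0.26 (95% interval -1.80 to -0.60, limma adjusted p = 0.562), and for Plagl1 -2.97 ± 0.63 and -0.70 ± 0.22 by its 2 probes (limma adjusted p = 0.612 and 0.761). For Dlk1 it was -0.90 ± 0.32 and -0.64 ± 0.21 (limma adjusted p = 0.817 and 0.799). The untreated WS cells in Cy3 are the denominator of the WS ratios and also the WS side of the genotype comparison within Cy3, so those readings share samples.

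A wider list of imprinted genes was read on the same arrays. Of 52 further imprinted genes 46 were on the array. On the genotype arrays 2 of them were called by the study's thresholds, against 2.01% of all probes, both higher in WS. Meg3, the maternally expressed noncoding neighbour of Dlk1 (named Gtl2 on the array), was at 1.43 ± 0.18 (limma adjusted p = 0.00370) and at 1.18 within Cy3 (limma adjusted p = 0.318). Dcn, the matrix proteoglycan decorin, was at 2.76 ± 0.26 (limma adjusted p = 0.00165) and at 1.90 within Cy3 (limma adjusted p = 0.0916). At an adjusted p under 0.05 there were 8 higher and 6 lower genes of the 46, against 10.2% and 9.76% of all probes. The list median was 0.10 against 0.01 over all probes. Igf2r, the receptor that clears Igf2 from the cell surface, was among the higher at 1.50 ± 0.20 (limma adjusted p = 0.00639), but within Cy3 it was at 0.98 and did not pass (limma adjusted p = 0.548). Gatm, the enzyme of the first step of creatine synthesis, was among the lower at -3.59 ± 0.54 (limma adjusted p = 0.00618), with its Cy5 spot well above background on 2 of 6 arrays. It was also the 1 gene of this list to pass at an adjusted p under 0.05 within Cy3, at -2.02 (limma adjusted p = 0.0380). Atp10a was lower too, at -1.78 ± 0.17 (limma adjusted p = 0.00155), with a mean intensity under the study's threshold. Within Cy3 it was at -1.28 and did not pass (limma adjusted p = 0.241). Under treatment no gene of this list was called by the study's thresholds in either genotype, where 0% of all probes were called. At an adjusted p under 0.05, 1 gene of the list passed in WT, against 0.836% of all probes, and 0 in WS, against 0%. It was Slc22a2, higher in treated WT at 1.02 ± 0.16 (limma adjusted p = 0.0476), with its Cy5 spot well above background on 3 of 6 arrays.

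**Figure D4:**
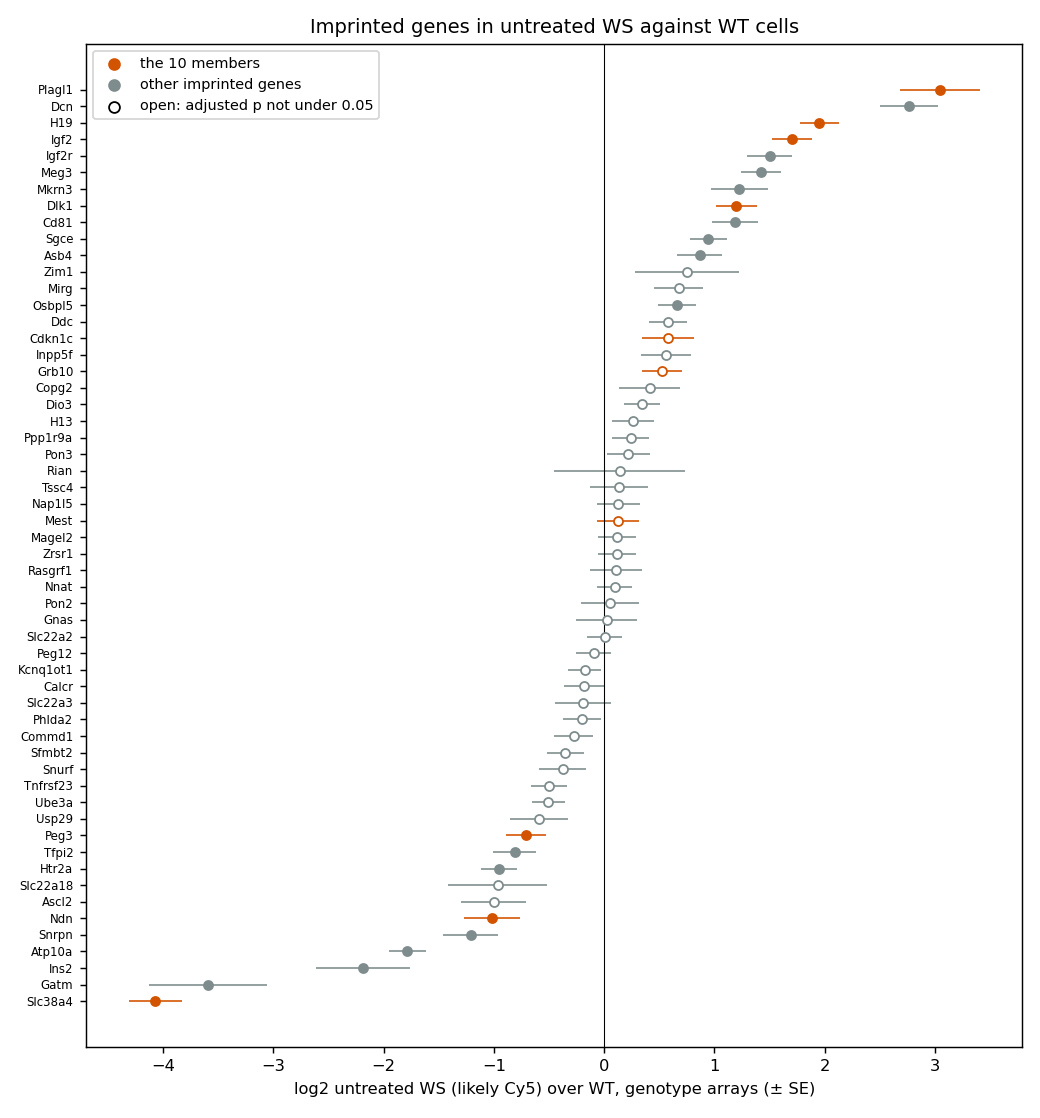
Log2 untreated WS over WT on the genotype arrays (horizontal axis, bars are the SE of the fit, WS likely in Cy5) for the 10 members (orange) and the 46 other imprinted genes on the array (grey), filled where the adjusted p was under 0.05. The members include the highest value, Plagl1 at 3.05, and the lowest, Slc38a4 at -4.07, while the grey genes spread on both sides of 0.

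Of 13 genes that act with Igf2, its receptors, binding proteins and signalling partners, 11 were on the array. None was called by the study's thresholds in any comparison, where 2.01% of all probes were called on the genotype arrays. On those arrays 2 were higher and 6 lower at an adjusted p under 0.05, against 10.2% and 9.76% of all probes. The list median was -0.80 against 0.01 over all probes. The higher genes were the binding proteins Igfbp5, at 3.10 ± 0.25 (limma adjusted p = 9.76e-04) with a mean intensity under the study's threshold, and Igfbp4, at 1.14 ± 0.18. The lower genes were the binding protein Igfbp3 at -1.83, the growth factor Igf1 at -0.80, its receptor Igf1r at -0.99 and the insulin receptor Insr at -1.15. The docking protein Irs1 at -0.87 and the RNA-binding protein Igf2bp1 at -1.13 were lower too. The Cy5 spots of Igfbp3, Insr and Igfbp5 were well above background on 2 of 6 arrays each, so these sizes are uncertain. Within Cy3 none of the 11 passed at an adjusted p under 0.05, where 1 of higher and 6 of lower value had an unadjusted p under 0.05 (against 2.7% and 7.36% of all probes), and the list median was -1.07 against -0.11 over all probes. These 8 genes were named by their calls after their values were seen.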

How the data were processed

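RNA of the cells (total RNA by the labels, cytoplasmic RNA by the study's methods) was hybridized to 6 two-colour Agilent whole-genome arrays. The deposited scanner files hold, per spot, mean signal and local background as linear intensity and a log10 ratio of Cy5 over Cy3, made by the authors with Feature Extraction (7.5.1 per the file headers). The deposited series table holds log2 ratios that the authors made with limma, and correlated with the present ratios at 0.999 or above. The depth of an array is its number of spots, and 2 arrays per comparison limit the precision.

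Here background was subtracted, ratios were loess-normalized within arrays (control spots at weight 0), outlier spots were left out, and 1 limma fit over the 6 arrays (limma 3.58.1, R 4.3.3) gave a coefficient per comparison, with p-values adjusted over all probes. Single channels were scaled by Aquantile, and the Cy3 comparison was called at an adjusted p under 0.05. Replicates are biological replicates by the labels, with no word on separate embryos, so p-values measure the spread between these samples. Where a group has 1 usable array its own spread is not measured, and the error comes from other arrays or from all probes. All members and all their probes are named. A gene stands for its brightest probe in lists. Named genes of the wider list were those called by the study's thresholds, and Igf2r, Gatm, Atp10a and Slc22a2 were added after their values were seen. The members and the gene lists were chosen with earlier results of these data known. Gene names are those of the array, and sequences come from RefSeq (GRCm38.p6), where 12 of 18 probes were designed on a RefSeq transcript of their gene. The script was tested on simulated data. Columns of the authors' own comparisons served only to settle the dye order. The replicate numbers shared by the WT and WS treatment arrays were not used as pairs. The deviations of replicate 1 from 2 correlated at -0.04 between the genotypes, which cannot exclude a shared batch or culture day. Alternatives were other background, normalization, outlier, probe and threshold rules and leaving out each array.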

Additional observations from a re-analysis of the deposited data

Results flagged for a closer look

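Igf2 by probe A_51_P516826 had log2 ratios above 0 on both WT arrays and below 0 on both WS arrays, and its response differed by -1.20 between the genotypes (WS minus WT, unadjusted p = 0.00205 in the limma fit, adjusted p = 0.562). Plagl1 differed in the same direction by both probes, by -2.97 for A_52_P532456 (limma adjusted p = 0.612) and by -0.70 for A_51_P432034 (limma adjusted p = 0.761). The first of these rests on a single WS array. They were picked out because both WT arrays lay above 0 and the WS arrays below it with a test of the difference at an unadjusted p under 0.05. None of the 3 passed the adjustment over all probes.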

How the results depend on the processing

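On the genotype arrays 4 members were called of 825 probes in all. There were 5 with outlier spots kept (1336 in all) or from the series table (1347), 3 with outlier spots also out of the loess curve (725, an alternative chosen after seeing the data) and 7 at an adjusted p under 0.05 alone (8199). There was 1 with normexp background (283), with Feature Extraction log ratios (3), on the own 2 arrays alone (38) or with the mean of all probes of a gene (1), and 4 with median centring (339). Leaving out 1 array gave 0 to 6, with 0 without WS replicate 1 or 2 (28 in all), 1 without WT replicate 1 or 2 (144), 4 without genotype replicate 3 (2486) and 6 without genotype replicate 4 (5326). The replicate block adds the replicate number as a term, although it is not known to pair WT with WS samples. It left 1 of those 4 calls on the genotype arrays (35 in all), 1 within Cy3 (12) and 0 for the treatment. Under treatment 0 members were called, but 3 in WT (1590 in all) and 2 in WS (607) when a fit held only the 2 arrays of its comparison, and 0 to 3 in WT, 0 to 2 in WS and 0 to 1 for the difference of the responses when 1 array was left out. Without genotype replicate 3 or 4 the counts were 3, 2 and 1, of 1482, 498 and 48 probes in all. Within Cy3 the 1 call (191 in all) became 2 with quantile normalization (238), 0 with normexp background (0), 3 with outlier spots kept (302) and 0 to 3 on leaving out an array (0 without WS replicate 1 or 2, with 0 in all, 2 without WT replicate 1, with 4822, and 3 without WT replicate 2, with 544). The cause of these changes was not tested.

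Signs turned only for values that were not called. With median centring in place of loess, WT values became 0.52 for Dlk1, 0.048 for Grb10 and 0.089 for Slc38a4, the WS value of Grb10 became 0.15, and differences of the response became 0.031 for Cdkn1c, 0.10 for Grb10 and -1.51 for Slc38a4. With Feature Extraction log ratios the WS values became 0.42 for Peg3, -0.056 for Cdkn1c and 0 for Slc38a4, and the Peg3 response difference 0.16. Dlk1 in WT became 0.18 from the series table and 0.18 with outlier spots kept. The response difference of H19 became -0.17 with normexp and -0.21 with the mean of all probes, which also gave 0.16 for Ndn in WT and -0.44 for its response difference. That of Cdkn1c was 0.11 with only spots well above background, without WS replicate 2 or with the replicate block. The block also gave 0.12 for Dlk1 and -0.050 for Cdkn1c in WT, and -0.011 for Ndn within Cy3. On leaving out an array of the own comparison, the Mest response difference ran from -0.13 without WT replicate 1 to 0.30 without WT replicate 2, and that of Cdkn1c from -0.30 without WS replicate 1 to 0.11. The WS values without replicate 1 and without replicate 2 were -0.14 and 0.26 for Cdkn1c, 0.14 and -0.21 for Slc38a4, and -0.22 and 0.11 for Peg3. Mest on the genotype arrays was -0.085 without replicate 3 and 0.34 without replicate 4. Within Cy3 Cdkn1c was -0.14 with outlier spots kept, Mest ran from -0.23 without WT replicate 2 to 0.31 without WT replicate 1, with -0.20 without WS replicate 1, and Ndn from -0.011 without WS replicate 2 to 0.95 without WS replicate 1. An extraction-session block could not be fitted, since the 4 treatment arrays share 1 day of signal extraction and each genotype array has a day of its own. Only 82 of 108 member spots were well above background in Cy5. This limits Mest in both genotypes, and Peg3, Slc38a4 and the second Ndn probe mainly in WS. The sizes of the WS values shrank with median centring, from -1.41 to -0.19 for H19 and from -0.91 to -0.12 for Dlk1.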
